A study of Mus musculus with 36 samples.

Results

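The genes described here carry ions and water across the surface cells of the colon, or send the peptide signals that set this transport. They are the chloride and bicarbonate exchanger Slc26a3, the sulfate transporter Slc26a2, the sodium and proton exchanger Slc9a3, the sugar phosphate exchanger Slc37a2, the carbonic anhydrases Car1, Car2 and Car4, the water channel Aqp8 and the peptides Guca2a (guanylin) and Guca2b (uroguanylin). All 10 were listed by name with earlier results of these data known, and all 10 were among the 17097 genes measured. Where a gene had several probe sets, the one brightest on average across the 36 arrays stood for it.

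Surface colonocytes take up sodium chloride by running a sodium and proton exchanger beside a chloride and bicarbonate exchanger, and water follows the salt. Carbonic anhydrases supply the protons and bicarbonate that both exchangers trade. Guanylin and uroguanylin bind the receptor guanylate cyclase C on the luminal side, which raises cyclic GMP, lowers sodium uptake and opens the chloride channel CFTR. Loss of SLC26A3 function in humans causes a congenital diarrhea rich in chloride.

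Colons came from wild-type mice (WT) and from mice that lack Il17rc (KO), a receptor subunit for IL-17A and IL-17F. The labels do not say whether the gene was deleted in all cells. The labels give an age of 6 to 8 weeks for every group, so it cannot be the age at sampling in all of them. Untreated mice (day 0) had neither agent, and 4 arrays of each genotype represent them. Treated mice of both genotypes received the carcinogen azoxymethane (AOM) and then dextran sulfate sodium (DSS), a polymer that damages colonic epithelium, at 3% in their water. The full course was 3 cycles of 5 days, each followed by 14 days of plain water. The labels give only this full course, and mice taken at day 7 or day 15 cannot have completed it. Each genotype had 4 arrays at day 7, 4 at day 15 and 6 labelled tumor at day 63. Day 63 has no other arrays, so tumor, the full course and time cannot be told apart in comparisons with untreated colon. All 36 samples were homogenised colon tissue, and the labels do not say how much normal colon the tumor samples held. The labels do not say whether the arrays of a group come from separate animals, so each p-value reflects only how far these samples scattered, which may be technical. They do not name a strain either.

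Several arrays stood apart from their group. Il17rc lay between 76 and 515 in WT arrays and between 7 and 15 in KO arrays, except the arrays labelled KO day 7 replicate 1 (331) and replicate 2 (44). Krt5, a keratin of squamous epithelium, exceeded 100 in 7 arrays. In WT these were replicates 1 and 4, both untreated and at day 7. In KO they were day 7 replicates 1 and 2, and replicate 2 of the tumors. S100a8, a neutrophil protein, was highest in replicate 4 of both genotypes at day 15 (5585 in WT and 6239 in KO). KO tumor replicate 4 was the only array with a raised Y-linked transcript, Eif2s3y, at 139. Epcam, an adhesion protein of intestinal epithelial cells, lay between 5268 and 7330 on every array, and the sum of 10 general epithelial markers between 36993 and 55004.

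Differences below are log2 differences of quantile-normalized values after adding 1, each ± its standard error from limma, and intensities are the deposited linear values. A gene is said to rise or fall where the limma p-value, adjusted by Benjamini-Hochberg over all 17097 genes, was under 0.05. In homogenised tissue, fewer cells of a type and less RNA per cell cannot be told apart.

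In tumors, 6 of the 10 transport genes fell in both genotypes: Slc26a3, Slc26a2, Slc37a2, Car2, Car4 and Aqp8. Car1 fell in WT tumors alone by the threshold, Slc9a3 and Guca2b rose in both, and Guca2a passed the test in neither. In WT tumors 9 of 10 passed (7 lower and 2 higher), beside 22.8% of all genes. In KO tumors 8 of 10 passed (6 lower and 2 higher), beside 20.8% of all genes. The median log2 difference over the 10 genes was -1.81 in WT and -1.71 in KO tumors, and over all genes it was 0.02 and 0.01. Because the 10 genes were chosen with earlier results of these data known, these counts and medians do not test them against all genes. The counts were 9 and 8 without each array in turn. Without the 7 arrays with Krt5 above 100 they were 8 and 8.

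**Figure D1:**
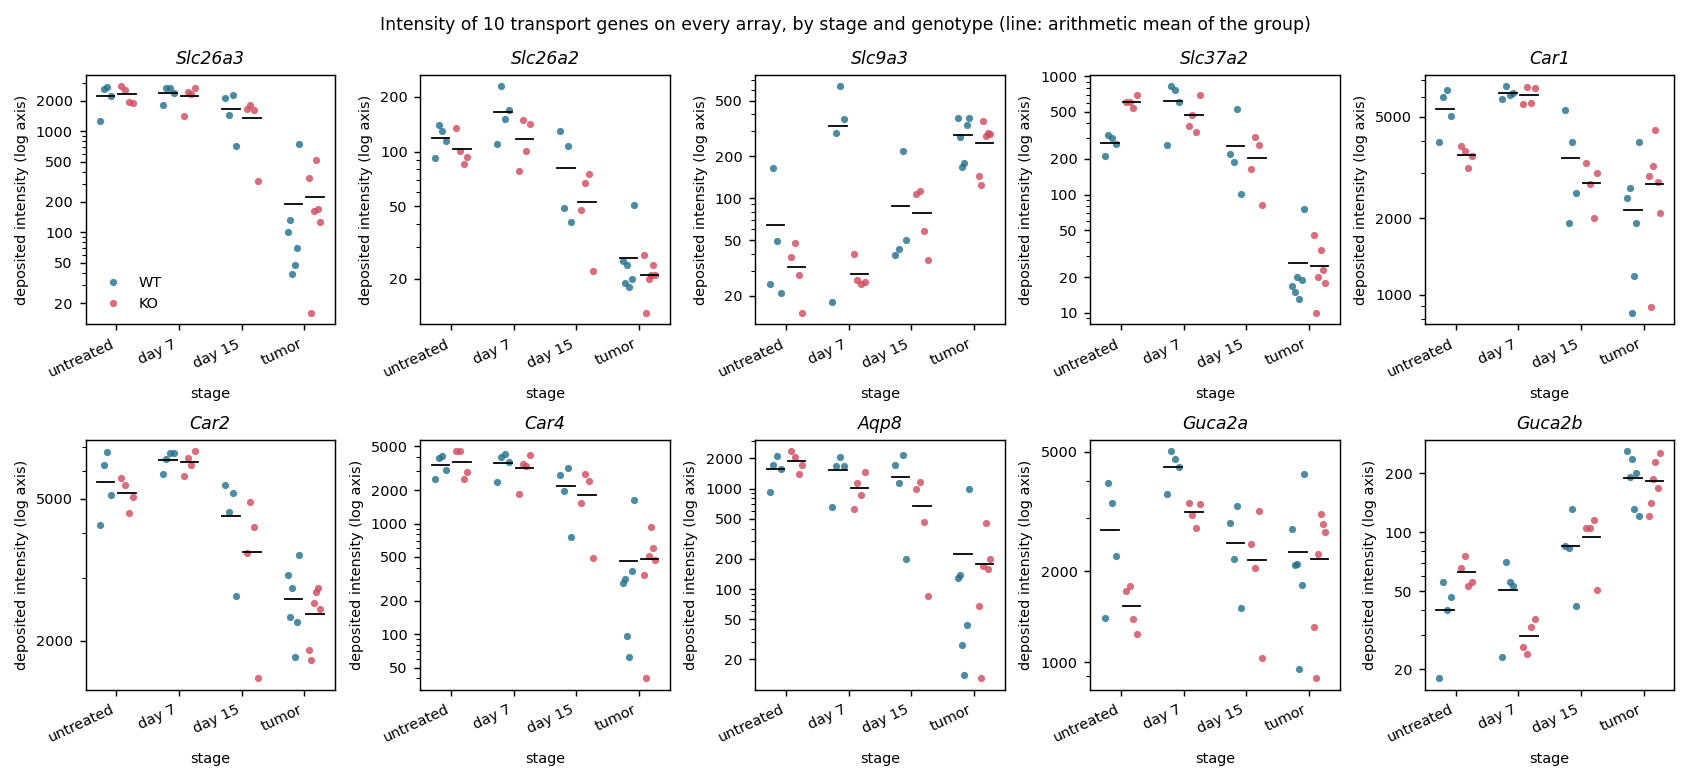
Deposited intensity on a log axis for each of the 10 transport genes on all 36 arrays, by stage, with WT in blue, KO in red and a black line at the arithmetic mean of each group of 4 or 6 arrays. The group means of Slc26a3, Slc37a2, Car4 and Aqp8 are lowest in tumors. That of Guca2b is highest there, with tumor arrays between 121 and 260. In WT, tumor and day 15 arrays overlap for each of these genes other than Slc37a2.

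Slc26a3 exchanges luminal chloride for bicarbonate at the apical membrane. The untreated arrays had intensities of 1276, 2629, 2739 and 2209 in WT and 2810, 2588, 1954 and 1907 in KO. The WT tumor arrays had a lowest value of 39, a median of 85 and a highest of 748, and the KO tumor arrays had 16, 166.5 and 524. Every tumor array lay below every untreated array of its genotype. The log2 difference was -4.34 ± 0.67 in WT (adjusted p = 1.81e-05) and -3.92 ± 0.67 in KO (adjusted p = 7.34e-05). The mean tumor intensity was 8.58% of the untreated mean in WT, with single arrays between 1.76% and 33.8%, and 9.66% in KO, between 0.691% and 22.6%. A second probe set of the gene gave -5.23 and -4.78.

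Before tumors formed, Slc26a3 stayed near its untreated level at day 7 and was lower on part of the arrays at day 15. At day 7 the WT arrays had 1819, 2695, 2687 and 2385 and the arrays labelled KO had 1419, 2424, 2331 and 2700, which overlap the untreated arrays. At day 15 the WT arrays had 2132, 1448, 2309 and 711 and the KO arrays had 1653, 1834, 1624 and 326. The lowest value in each genotype was replicate 4, the arrays with the most S100a8, and all 4 KO arrays lay below all untreated KO arrays. Neither difference from untreated passed the test (-0.48 ± 0.73 in WT and -1.03 ± 0.73 in KO), and without both replicates 4 the values were -0.11 and -0.43. Between day 15 and tumor the gene fell by 3.86 ± 0.67 in WT (adjusted p = 9.5e-05) and by 2.88 ± 0.67 in KO (adjusted p = 0.00377).

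The 150 bases before the annotated start of Slc26a3 are shown because they hold the letters GTTAAT, part of the site known for the HNF1 transcription factors, at 2 places. The matches, in capitals, begin at -94 and -84, counted so that -1 is the base just before the start. The window is chr12:31438069-31438218 on the plus strand (RefSeq, GRCm38.p6), read 5′ to 3′.
Slc26a3: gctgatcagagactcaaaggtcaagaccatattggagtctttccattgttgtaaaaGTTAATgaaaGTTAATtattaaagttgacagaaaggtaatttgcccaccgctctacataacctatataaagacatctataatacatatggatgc
The letters were searched on both strands (GTTAAT or ATTAAC) and chosen after the matches had been seen. They occur in 3.71% of 32851 annotated promoters over the same window, and in 2 of the 7 transport genes looked up. Slc26a2, Car1 and Car2 were not among these 7. Whether their promoters hold the letters is not shown, so 2 of 7 does not describe all 10 genes. A match is a description of the sequence, and no binding was measured.

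Slc26a2 imports sulfate, which epithelial cells use to sulfate mucins, and it fell in tumors of both genotypes. The untreated intensities were 92, 141, 130 and 114 in WT and 135, 101, 86 and 93 in KO. Tumor arrays had a lowest value of 18, a median of 22 and a highest of 51 in WT, and 13, 21 and 27 in KO. No tumor array reached an untreated array, and most tumor values were close to the array median of 14 to 16, where the size of a log2 difference depends on the number added before the log. The log2 difference was -2.20 ± 0.33 in WT (adjusted p = 1.14e-05) and -2.27 ± 0.33 in KO (adjusted p = 8.07e-06).

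Slc26a2 was also lower at day 15 than at day 7. Day 7 arrays had 110, 230, 152 and 169 in WT, and those labelled KO had 78, 150, 101 and 142. Day 15 arrays had 130, 49, 107 and 41 in WT and 48, 67, 75 and 22 in KO. The KO groups did not overlap, and Slc26a2 fell there by 1.43 ± 0.36 (adjusted p = 0.00369), or by 1.47 without the arrays labelled KO day 7 replicates 1 and 2. The WT groups overlapped, and the difference of -1.25 ± 0.36 had an adjusted p of 0.0503, which crossed the threshold without any of 9 single arrays, with values between -1.53 and -1.25. These were replicate 1 of either genotype at day 7, WT tumor 6, KO tumor 2, and at day 15 the WT replicates 1 and 3 and the KO replicates 2, 3 and 4. Tumor arrays were lower than day 15 arrays by the test too: Slc26a2 fell by 1.49 ± 0.33 in WT (adjusted p = 0.00123) and by 1.05 ± 0.33 in KO (adjusted p = 0.029). The KO call ended without KO tumor replicate 2 or any of KO day 15 replicates 1, 2 and 3, with values between -1.09 and -0.81.

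Slc37a2, an exchanger of sugar phosphate and phosphate in internal membranes, was the gene with the largest fall of the 10 in KO tumors. Untreated intensities were 210, 320, 301 and 270 in WT and 604, 603, 537 and 697 in KO. WT tumor arrays had a lowest value of 13, a median of 18 and a highest of 75, and KO tumor arrays had 10, 21.5 and 46. Tumor and untreated arrays were fully apart in both genotypes, and all tumor arrays other than WT replicate 6 and KO replicates 1 and 4 were at or below 23. The log2 difference was -3.58 ± 0.44 in WT (adjusted p = 5.51e-07) and -4.67 ± 0.44 in KO (adjusted p = 4.38e-09). The mean tumor intensity was 9.63% of untreated in WT and 4.12% in KO.

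The larger fall in KO went with a higher starting level. All untreated KO arrays had more Slc37a2 than all untreated WT arrays, a difference of 1.14 ± 0.48 with a 95% interval of 0.17 to 2.12 and an adjusted p of 0.278, which did not pass. The test of whether the tumor change differed between genotypes gave -1.10 ± 0.62 (adjusted p = 0.691). Tumor levels differed by 0.05 ± 0.39 between genotypes, with an interval of -0.75 to 0.85.

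Between these stages Slc37a2 was variable. Day 7 arrays had 260, 829, 760 and 609 in WT, and those labelled KO had 379, 469, 338 and 691. Day 15 arrays had 221, 190, 525 and 102 in WT and 166, 308, 262 and 81 in KO. All KO day 15 arrays were below all untreated KO arrays (-1.81 ± 0.48, adjusted p = 0.0605), and without both replicates 4 the value was -1.39. It passed without any of 6 single arrays (KO day 15 replicate 2 or 3, WT day 15 replicate 3 or 4, WT tumor 6 or KO tumor 2; values between -2.09 and -1.81). The gene fell from day 7 to day 15 in KO by 1.45 ± 0.48 (adjusted p = 0.0246). That call ended without KO day 15 replicate 1 or 4 or the arrays labelled KO day 7 replicate 2 or 4 (values between -1.43 and -1.02), and without KO day 7 replicates 1 and 2 together (-1.54). Between day 15 and tumor it fell by 3.24 ± 0.44 in WT (adjusted p = 3.74e-06) and by 2.86 ± 0.44 in KO (adjusted p = 3.41e-05), with no overlap in either.

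Slc9a3, the exchanger NHE3 that brings sodium in for protons, rose in tumors. Its probe set was annotated from an expressed sequence tag and was dim in healthy colon. Untreated intensities were 24, 164, 49 and 21 in WT and 38, 48, 28 and 15 in KO. WT tumors had a lowest value of 166, a median of 304.5 and a highest of 377, and KO tumors had 124, 284 and 356. All tumor arrays lay above all untreated arrays of their genotype, in WT barely so. The log2 difference was 2.55 ± 0.66 in WT (adjusted p = 0.0049) and 2.87 ± 0.66 in KO (adjusted p = 0.00184). Without the 7 arrays with Krt5 above 100, which include the lowest untreated WT arrays, replicates 1 and 4, the WT value was 1.56 and did not pass.

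At day 7 Slc9a3 was high on 3 of 4 WT arrays. The WT arrays had 18, 294, 637 and 366, and those labelled KO had 40, 26, 24 and 25. WT replicate 1, the low array, had Krt5 at 817. WT replicate 4, also with Krt5 above 100, had Slc9a3 at 366. KO replicate 1, with Krt5 above 100 too, had the highest Slc9a3 of the arrays labelled KO (40). The genotypes overlapped through WT replicate 1, and KO minus WT was -2.66 ± 0.72 (adjusted p = 0.104). Without WT day 7 replicate 1 the difference was -3.77 and passed, and leaving out all 7 arrays rich in Krt5 gave -4.08, which passed. The WT change from untreated was 2.05 ± 0.72 (adjusted p = 0.197), or 3.16 without that array, which then passed. The change differed between genotypes by -2.11 ± 1.02 (adjusted p = 0.317), or -3.22 without that array, which then passed.

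At day 15 the Slc9a3 intensities were 39, 43, 217 and 50 in WT and 107, 113, 58 and 36 in KO. From day 15 to tumor the gene rose by 2.07 ± 0.66 in WT (adjusted p = 0.024), a call that ended without WT day 15 replicate 1, 2 or 4 (values between 1.82 and 1.93). In KO the day 15 and tumor arrays did not overlap, with a difference of 1.82 ± 0.66 (adjusted p = 0.0599), which passed without any of 6 single arrays (KO tumor 1, KO day 15 replicate 2, WT untreated 2, WT day 15 replicate 3, WT day 7 replicate 1 or 3; values between 1.82 and 2.08). The transcription factor Cdx2 had the pattern most like that of Slc9a3 over the 36 arrays (Pearson r = 0.876), followed by Gtf3a (0.835) and Mrpl34 (0.816). Cdx2, which directs intestinal identity, rose in tumors by 2.54 ± 0.64 in WT and by 2.06 ± 0.64 in KO (adjusted p = 0.00371 and 0.0183). The Cdx2 call in WT ended without the arrays with Krt5 above 100 (1.71), and the call in KO ended without KO untreated replicate 4 (1.97). Blocked fits ended them too, title letter as block in WT (1.65) and the replicate block in KO (1.66).

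The carbonic anhydrases convert carbon dioxide and water to bicarbonate and protons. Car4 sits on the outside of the apical membrane, while Car1 and Car2 are cytosolic. Among these, Car4 had the most negative log2 difference in tumors. Untreated Car4 intensities were 2554, 3891, 4098 and 3055 in WT and 4518, 4500, 2537 and 2937 in KO. WT tumors had a lowest value of 62, a median of 303.5 and a highest of 1636, and KO tumors had 40, 490 and 931. No tumor array reached an untreated array, and the tumor arrays themselves spread over more than an order of magnitude in each genotype.

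The Car4 log2 difference in tumors was -3.67 ± 0.68 in WT (adjusted p = 0.000175) and -3.29 ± 0.68 in KO (adjusted p = 0.000608), and a second probe set gave -3.83 and -3.55. At day 15 the Car4 intensities were 2734, 1986, 3205 and 752 in WT and 1550, 2828, 2439 and 485 in KO, again lowest in replicate 4 of each. Neither differed from untreated by the test (-0.82 ± 0.74 and -1.22 ± 0.74), and without both replicates 4 the values were -0.36 and -0.67. Between day 15 and tumor Car4 fell by 2.85 ± 0.68 in WT (adjusted p = 0.00254) and by 2.06 ± 0.68 in KO (adjusted p = 0.037). The KO call ended without KO tumor replicate 2 or any of KO day 15 replicates 1, 2 and 3 (values between -2.06 and -1.45).

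Car2 fell in tumors of both genotypes. Untreated Car2 intensities ranged from 4235 to 6743 in WT and from 4572 to 5723 in KO. Tumor intensities ranged from 1797 to 3478 in WT and from 1770 to 2814 in KO, with no overlap in either. The tumor mean was 47.0% of untreated in WT and 45.6% in KO, and the log2 difference was -1.06 ± 0.23 (adjusted p = 0.000918) and -1.15 ± 0.23 (adjusted p = 0.00038). Car2 also fell from day 7 to day 15 in KO, by 0.97 ± 0.25 (adjusted p = 0.00425), with all arrays labelled KO day 7 (5798 to 6796) above all KO day 15 arrays (1571 to 4910). In WT, where those groups did not overlap either, the difference was -0.55 ± 0.25 (adjusted p = 0.239). From day 15 to tumor Car2 fell in WT by 0.76 ± 0.23 (adjusted p = 0.0164), a call that ended without WT day 15 replicate 1 or 3 (values of -0.66 and -0.64).

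Car1 passed the test in WT tumors and not in KO tumors. Untreated Car1 intensities were 3997, 5987, 6395 and 5049 in WT and 3843, 3660, 3143 and 3503 in KO, so that every KO array lay below every WT array. That difference was -0.56 ± 0.36 (adjusted p = 0.576). WT tumors had a lowest value of 847, a median of 2157.5 and a highest of 3984, and KO tumors had 895, 2852 and 4437. WT tumors were all below untreated WT arrays, the highest barely so (3984 against 3997). In KO, 1 tumor array exceeded all untreated KO arrays. It was replicate 4, the array with raised Eif2s3y. Car1 fell in WT tumors by 1.43 ± 0.33 (adjusted p = 0.00185), and the KO difference was -0.51 ± 0.33 with an interval of -1.18 to 0.17 (adjusted p = 0.326). The test of the difference between genotypes gave 0.92 ± 0.47 (adjusted p = 0.636), so a genotype effect was not shown.

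At day 7 Car1 ranged from 5865 to 6615 in WT and from 5626 to 6535 in the arrays labelled KO, where all 4 exceeded all untreated KO arrays (0.77 ± 0.36, adjusted p = 0.182). By day 15 it ranged from 1911 to 5339 in WT and from 1995 to 3297 in KO. Car1 fell from day 7 to day 15 in KO by 1.16 ± 0.36 (adjusted p = 0.0173), a call that ended without KO day 15 replicate 3 (-1.03) and without KO day 7 replicates 1 and 2 together (-1.18). The WT difference was -0.95 ± 0.36 (adjusted p = 0.154).

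Aqp8 is a water channel of the apical surface, and its tumor levels varied more than those of any other gene of the 10 on the log2 scale. Untreated intensities were 921, 1713, 2113 and 1567 in WT and 2361, 2067, 1399 and 1729 in KO. WT tumors had a lowest value of 14, a median of 86 and a highest of 995, and KO tumors had 13, 163.5 and 456. WT tumor replicate 6, the highest array, lay just above the lowest untreated WT array, while all KO tumor arrays lay below all untreated KO arrays. The log2 difference was -4.17 ± 0.88 in WT (adjusted p = 0.000727) and -4.00 ± 0.88 in KO (adjusted p = 0.00112). The tumor mean was 14.2% of untreated in WT and 9.39% in KO.

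Aqp8 at day 7 was 662, 1691, 2054 and 1684 in WT and 632, 1128, 869 and 1450 in the arrays labelled KO. At day 15 it was 1737, 1131, 2146 and 200 in WT and 994, 1159, 468 and 86 in KO. All KO day 15 arrays lay below all untreated KO arrays, whereas WT replicate 4 was the only WT array below its untreated range. The KO difference from untreated was -2.06 ± 0.96 with an interval of -4.02 to -0.10 (adjusted p = 0.283), or -1.21 without both replicates 4. Aqp8 fell from day 15 to tumor in WT by 3.52 ± 0.88 (adjusted p = 0.00381). The KO difference was -1.94 ± 0.88 (adjusted p = 0.134), or -2.79 without KO day 15 replicate 4, which then passed.

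The guanylin peptides went separate ways in tumors. Uroguanylin, Guca2b, rose while guanylin, Guca2a, passed the test in neither genotype. Untreated Guca2b intensities were 18, 56, 40 and 47 in WT and 66, 76, 53 and 56 in KO. WT tumors had a lowest value of 121, a median of 196 and a highest of 260, and KO tumors had 121, 178 and 256. All tumor arrays lay above all untreated arrays. The log2 difference was 2.31 ± 0.35 in WT (adjusted p = 1.37e-05) and 1.47 ± 0.35 in KO (adjusted p = 0.00245), and the difference between them was -0.84 ± 0.49 (adjusted p = 0.703).

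Guca2b was above its day 7 level by day 15 in KO. Day 7 intensities were 23, 71, 56 and 53 in WT and 26, 24, 33 and 36 in the arrays labelled KO, all of which lay below untreated KO arrays (-1.01 ± 0.38, adjusted p = 0.0825). The change at day 7 differed between genotypes by -1.51 ± 0.54 (adjusted p = 0.145), or -1.87 without WT day 7 replicate 1, which then passed. Day 15 intensities were 85, 83, 131 and 42 in WT and 105, 105, 116 and 51 in KO. The KO groups of day 7 and day 15 did not overlap, and Guca2b rose between them by 1.38 ± 0.38 (adjusted p = 0.00755). Without KO day 7 replicates 1 and 2 the value was 1.18 and did not pass. The WT change from untreated to day 15 was 1.06 ± 0.38 (adjusted p = 0.125), or 1.45 without WT day 15 replicate 4, which then passed.

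From day 15 to tumor Guca2b rose by 1.25 ± 0.35 in WT (adjusted p = 0.00964) and by 1.09 ± 0.35 in KO (adjusted p = 0.0318). The WT call ended without WT day 15 replicate 4 (0.86). The KO call ended without KO tumor replicate 3, 4 or 6 or KO day 15 replicate 1 or 4 (values between 0.77 and 1.16).

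Guca2a was bright throughout. Untreated intensities were 1405, 3944, 3377 and 2253 in WT and 1729, 1792, 1390 and 1238 in KO. WT tumors had a lowest value of 952, a median of 2109.5 and a highest of 4220, and KO tumors had 884, 2491 and 3106. Tumor and untreated arrays overlapped in both genotypes, with differences of -0.26 ± 0.35 in WT (interval -0.97 to 0.45) and 0.42 ± 0.35 in KO (interval -0.29 to 1.12). The highest group was WT day 7, at 3630, 5017, 4733 and 4446, and all 4 arrays exceeded those labelled KO day 7, at 3368, 3083, 2785 and 3348. Arrays labelled KO day 7 in turn exceeded all untreated KO arrays (1.09 ± 0.38, adjusted p = 0.057). The difference stayed at 1.09 and passed without any of 6 single arrays of other groups: WT untreated 1, WT tumor 4 or 6, KO tumor 2, or replicate 4 of either genotype at day 15.

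Guca2a and Guca2b are neighbours on chromosome 4, and the 150 bases before their starts are shown because the neighbouring genes differed in tumors. The windows are chr4:119637582-119637731 on the plus strand for Guca2a and chr4:119658946-119659095 on the minus strand for Guca2b (RefSeq, GRCm38.p6), each read 5′ to 3′ along its gene. Capitals mark the same searched letters as above.
Guca2a: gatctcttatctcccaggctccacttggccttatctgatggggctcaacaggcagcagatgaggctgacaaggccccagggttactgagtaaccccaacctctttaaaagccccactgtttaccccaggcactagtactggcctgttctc
Guca2b: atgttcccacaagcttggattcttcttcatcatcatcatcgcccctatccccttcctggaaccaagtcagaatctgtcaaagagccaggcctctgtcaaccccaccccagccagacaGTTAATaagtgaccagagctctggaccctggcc
Guca2b had 1 match, starting at -33, and these letters are not in the Guca2a window, from which nothing follows about any factor.

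**Figure D2:**
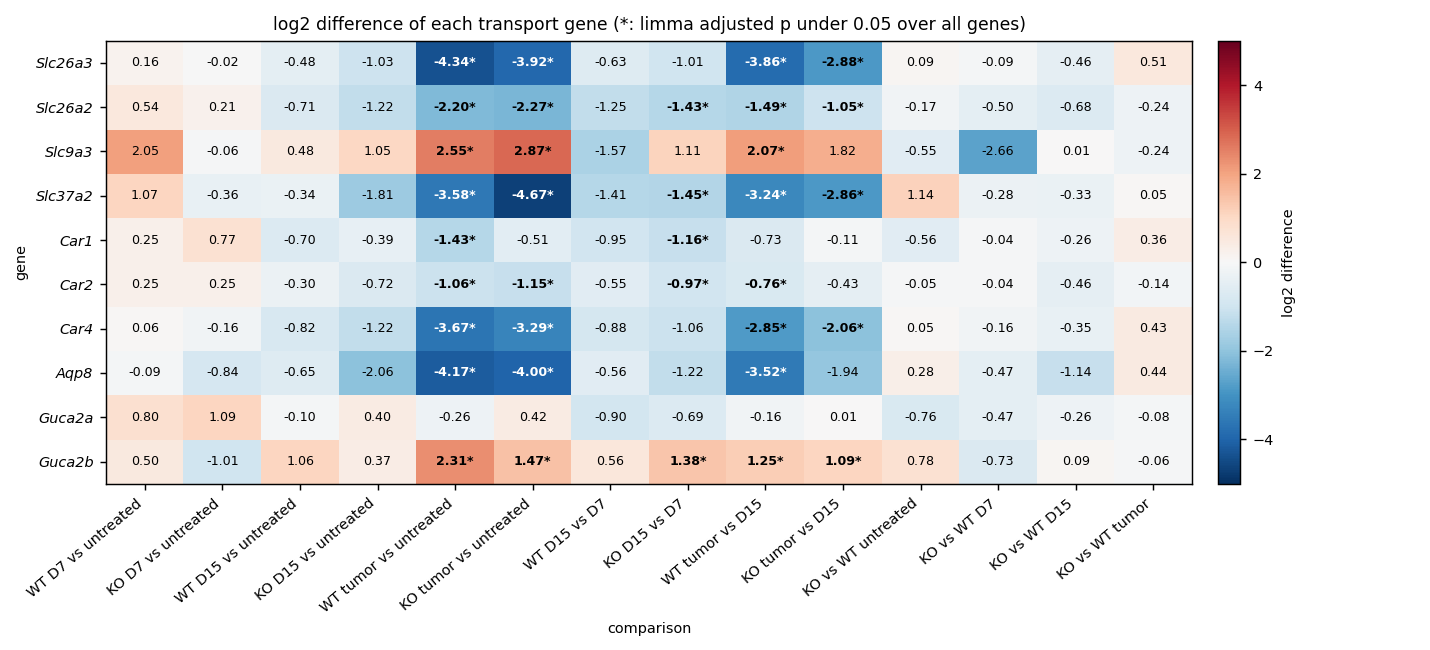
Log2 difference of each transport gene in 14 comparisons, as colour and number, with an asterisk where the limma p adjusted over all genes was under 0.05. Asterisks stand in both tumor columns, in the columns of tumor against day 15 and in KO day 15 against day 7, and the 4 columns of KO against WT have none.

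Before tumors, no transport gene differed from untreated colon by limma. At day 7, 0 of 10 passed in WT (3 at an unadjusted p under 0.05), beside 1.66% of all genes, and 0 of 10 in the arrays labelled KO (3 unadjusted), beside 12.2%. At day 15, 0 of 10 passed in WT (1 unadjusted), beside 3.38% of all genes, and 0 of 10 in KO (4 unadjusted), beside 0.813%. Array weights, an alternative that gives unlike arrays less say, called 2, 3, 1 and 1 of 10 in these comparisons. The median log2 difference of the 10 genes at day 15 was -0.41 in WT and -0.87 in KO. Replicate 4 decided much of this, since the median was 0.01 without it in WT and -0.44 without it in KO.

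Between stages, 5 of 10 passed from day 7 to day 15 in KO (4 lower and 1 higher), beside 25.2% of all genes, and 2 of 10, Slc26a2 and Car2, without the arrays labelled KO day 7 replicates 1 and 2. In WT 0 of 10 passed (6 unadjusted, 4 with array weights), beside 2.99%. From day 15 to tumor 8 of 10 passed in WT (6 lower and 2 higher), beside 20% of all genes, and 5 of 10 in KO (4 lower and 1 higher), beside 14.7%. These comparisons share arrays with those against untreated, so they are not separate evidence. The KO count from day 15 to tumor was between 2 and 6 without each array in turn, and it was 2 without KO day 15 replicate 1 and 3 without KO tumor replicate 2 or KO day 15 replicate 3.

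Between genotypes, no transport gene passed the test by limma at any stage. KO against WT gave 0 of 10 in untreated colon (1 unadjusted), beside 2.28% of all genes, 0 of 10 at day 7 (1 unadjusted), beside 0.298%, 0 of 10 at day 15 (0 unadjusted), beside 0.222%, and 0 of 10 in tumors (0 unadjusted), beside 0.0526%. Tests of whether the change from untreated differed between genotypes gave 0 of 10 at day 7 (3 unadjusted), beside 2.37% of all genes, 0 of 10 at day 15 (1 unadjusted), beside 0.0819%, and 0 of 10 in tumors (0 unadjusted), beside 0.784%. Array weights called 1 of 10 in untreated colon, 2 of 10 at day 7 and 3 of 10 for the interaction at day 7. The day 7 tests include the arrays labelled KO replicates 1 and 2, whose Il17rc was above that of all other KO arrays. They are therefore not a clean contrast of genotypes. In tumors the 95% intervals of KO minus WT were narrowest for Car2 (-0.56 to 0.27) and widest for Aqp8 (-1.15 to 2.04), so a difference of up to about those sizes cannot be told from none.

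Tumor and untreated arrays were apart for 8 of 10 genes in WT, beside 13.5% of all genes, and for 8 of 10 in KO, beside 19.2%. At day 15, 4 of 10 were apart from untreated in KO (Slc26a3, Slc26a2, Slc37a2 and Aqp8, all lower), beside 7.87%, and 0 of 10 in WT, beside 6.71%. At day 7, 4 of 10 were apart from untreated in the arrays labelled KO (Car1, Car2 and Guca2a higher, Guca2b lower), beside 20.2%, and 0 of 10 in WT, beside 6.47%. Between tumor and day 15 arrays, 1 of 10 was apart in WT (Slc37a2, lower), beside 10.4% of all genes. In KO, Slc37a2 was apart and lower and Slc9a3 and Guca2b were apart and higher, beside 8.11%. From day 7 to day 15 in KO, Slc26a2, Slc37a2, Car1 and Car2 were apart and lower, and Guca2b higher, beside 21.4% of all genes. In WT, Car1, Car2 and Guca2a were lower, beside 6.98%. Between genotypes, Slc37a2 was apart and higher in untreated KO and Car1 lower, beside 8.86%. At day 7 Guca2a was lower in the arrays labelled KO, beside 5.43%. At day 15 and in tumors 0 of 10 were apart, beside 3.74% and 0.135%.

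The tumor arrays did not share an equal loss. WT tumor replicate 6 kept the most Slc26a3 (748), Car4 (1636), Aqp8 (995), Slc37a2 (75) and Slc26a2 (51) of its group, and KO tumor replicate 2 had the least Slc26a3 (16), Car4 (40), Aqp8 (13), Slc37a2 (10) and Slc26a2 (13) of its group. Slc26a3 stood at 33.8% of the untreated mean of its genotype on WT replicate 6 and at 0.691% on KO replicate 2. WT replicate 6 also had the highest summed level of 7 smooth muscle markers (15843, the others from 5523), of 4 small intestine markers (1791, the others from 45) and of 7 goblet cell markers (35014, the others from 18125) in its group. KO replicate 2 had the lowest sums of smooth muscle (1819), small intestine (58) and goblet cell (15856) markers in its group. Its squamous sum (3698) was the highest there, and so were its sums of 10 general epithelial (48086) and 7 proliferation markers (8958). WT replicate 6 had the lowest proliferation sum (5221) in its group. The part of these cell types and of proliferation in the transport gene levels was not tested.

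With both of those arrays left out, an alternative chosen after seeing the data, the tumor counts were the same 9 and 8. The Slc26a3 difference was then -4.91 in WT and -3.30 in KO, and the Aqp8 difference -4.89 and -3.41.

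**Figure D3:**
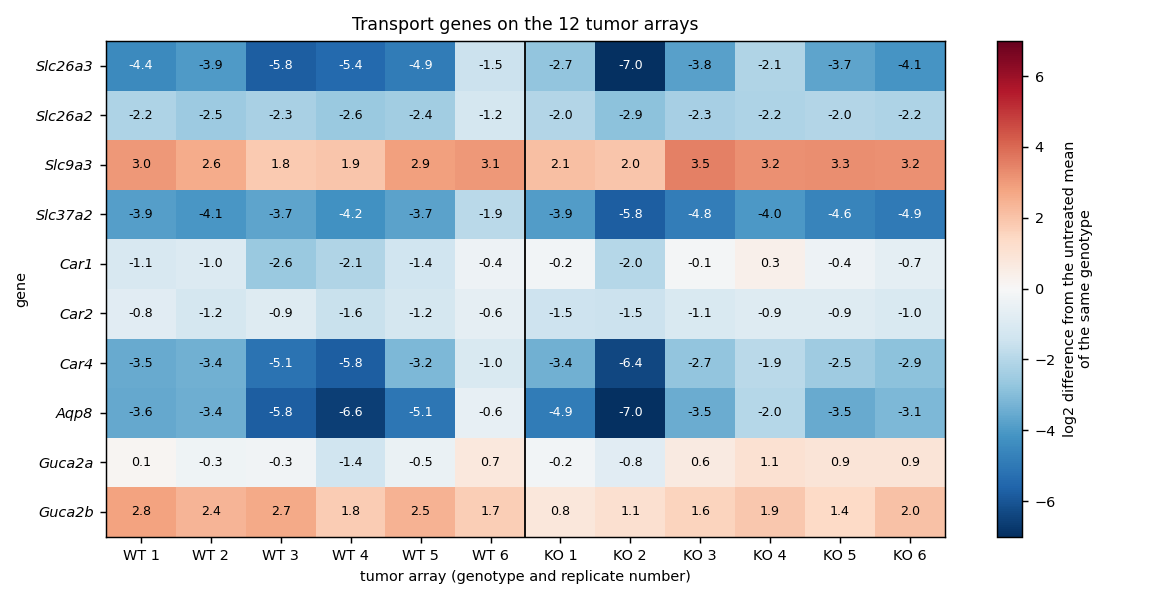
Log2 difference of each transport gene on each of the 12 tumor arrays from the untreated mean of the same genotype, as colour and number, with WT arrays left of the line and KO arrays right of it. The 6 genes that fell in both genotypes are below 0 on every tumor array, Guca2b and Slc9a3 are above 0 on every one. For Aqp8 the palest value is -0.60, on WT replicate 6.

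The 6 genes that fell in both genotypes also varied together from array to array within groups. After subtracting group means, the 15 pairs among them had correlations between 0.649 and 0.929 over 36 arrays, with a median of 0.765. On the 12 tumor arrays the median was 0.794, and on the 24 others it was 0.888. Car4 and Aqp8 were closest (0.929), and Slc26a3 and Car4 had 0.916. Over all 45 pairs of the 10 genes the median within groups was 0.679. Guca2a, which passed in neither tumor comparison, varied with the 6 genes too, from 0.655 for Slc37a2 to 0.847 for Aqp8. The correlations with the 6 ran from 0.352 to 0.801 for Car1, 0.366 to 0.534 for Slc9a3 and 0.287 to 0.679 for Guca2b. These are descriptions over arrays that share groups and tissue make-up. Within groups the 6 genes that fell also followed the mean of the goblet cell markers, with correlations from 0.744 for Slc37a2 to 0.873 for Car2. With the general epithelial markers their correlations ran from 0.334 for Car4 to 0.576 for Slc26a2. With the 4 small intestine markers they ranged from 0.714 for Slc26a2 to 0.906 for Aqp8. Guca2a had 0.797, 0.287 and 0.751 with these lists in turn.

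Guca2a and Guca2b had a correlation of -0.04 over the 36 arrays and of 0.644 after subtracting group means, so arrays of a group with more of one peptide tended to have more of the other. Among genes outside the 10, Gm5485 was most like Slc26a3 (r = 0.972) and Car4 (0.951), Chpt1 most like Slc26a2 (0.966), AI854703 most like Slc37a2 (0.968), Suclg2 most like Car2 (0.956), Gstt1 most like Car1 (0.890) and Ugt1a9 most like Aqp8 (0.943). Kcnk1 and 1700066B19Rik were most like Guca2b (0.886 each), and Aamdc most like Guca2a (0.840). Selenbp2 or Selenbp1 stood among the top 3 for Slc26a3, Slc26a2, Car2 and Car4.

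**Figure D4:**
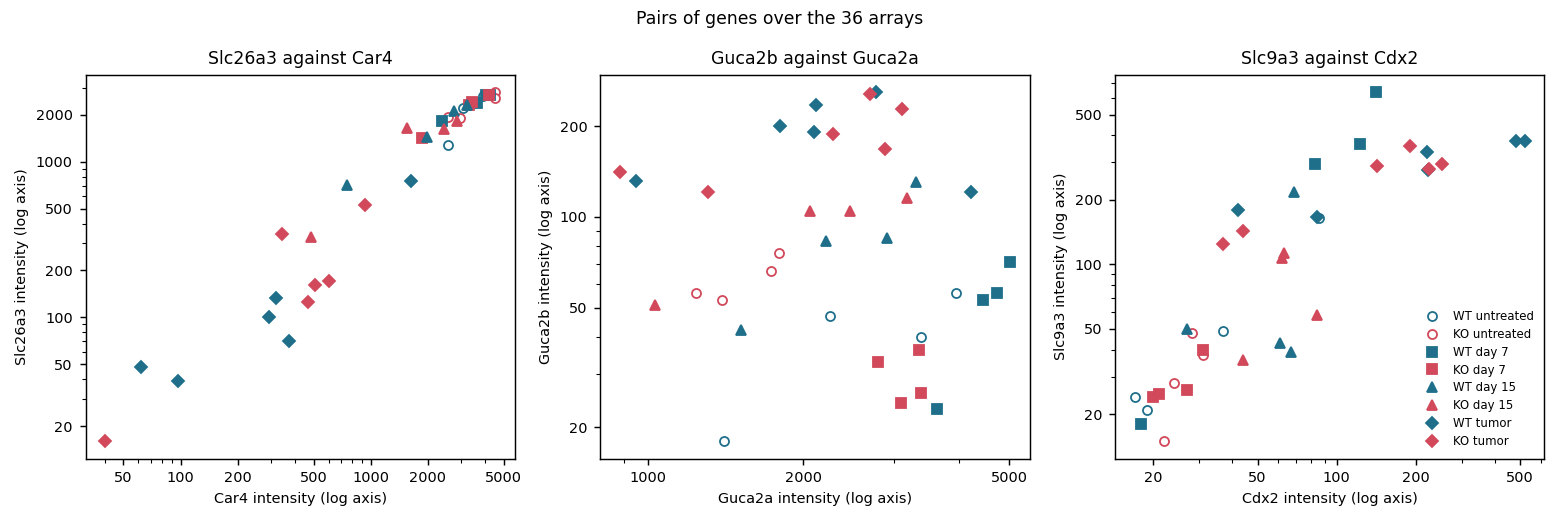
Pairs of genes over the 36 arrays, both axes deposited intensity on log scales, with colour for genotype and marker shape for stage. Slc26a3 and Car4 lie along 1 line, for Guca2a and Guca2b the tumor arrays lie at the high end of Guca2b while the other stages overlap, and Slc9a3 follows Cdx2, with 3 WT day 7 arrays among the highest for Slc9a3.

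Other genes of these pathways were counted in tumors from lists drawn up with earlier results of these data known, beside 22.8% of all genes called in WT and 20.8% in KO. Among 10 measured anion exchangers and chloride channels, 1 rose and 4 fell in WT, and 0 rose and 4 fell in KO. Slc4a4, which loads bicarbonate across the basolateral membrane, fell by 2.01 ± 0.44 in WT and by 2.27 ± 0.44 in KO. Cftr, the apical chloride channel that cyclic GMP opens, fell by 1.43 ± 0.35 and by 1.44 ± 0.35. The median log2 difference of the list was -0.50 in WT and -0.60 in KO. Of the 5 calls in WT, 3 held without each array in turn, as did 3 of the 4 in KO. Slc12a2, the riser in WT, had 0.60 and no call without WT untreated replicate 1.

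Of 10 genes of sodium absorption and its hormonal control, 0 rose and 4 fell in each genotype, and 3 calls in WT and 4 in KO held without each array in turn. Scnn1g in WT was the exception, at -1.34 without WT untreated replicate 4. Slc9a3r1, the scaffold protein that holds NHE3 at the apical membrane, fell by 1.31 ± 0.14 in WT and by 1.28 ± 0.14 in KO, while Slc9a3 itself rose. Nr3c2, the receptor for aldosterone, fell by 2.09 ± 0.31 and by 2.11 ± 0.31. Scnn1a, a subunit of the epithelial sodium channel, fell by 0.89 ± 0.19 and by 1.08 ± 0.19. Among 8 genes of the sodium pump and potassium transport, 0 rose and 1 fell in WT, and 2 rose and 2 fell in KO, of which 2 calls held without each array in turn. Atp12a, the proton and potassium pump of the distal colon, fell by 1.95 ± 0.38 in WT and by 3.15 ± 0.38 in KO.

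Of 8 other carbonic anhydrases, 1 fell in WT (Car14, by 0.91 ± 0.16) and 0 passed in KO by limma (2 at an unadjusted p under 0.05). Of 6 other aquaporins, 2 fell in WT (Aqp3 and Aqp11) and 1 in KO (Aqp11). Aqp3, a basolateral channel for water and glycerol, had a difference of -1.89 in WT that depended on single arrays. It was -0.05 without the arrays rich in Krt5, -0.99 without WT untreated replicate 1 and -1.57 without WT untreated replicate 4, and it did not pass in any of these. It also lost its call without each of WT tumor 1 to 5 (-1.93 to -1.86). Aqp11 fell by 1.11 ± 0.35 and by 1.15 ± 0.35, but the call ended without WT untreated replicate 2 (-0.91) or 3 (-0.70) in WT and without KO untreated replicate 1 (-1.04) in KO. Of 4 genes of short-chain fatty acid transport, 0 rose and 2 fell in WT, and 1 rose and 2 fell in KO. Slc5a8, which takes up butyrate with sodium, fell by 3.15 ± 0.61 and by 3.70 ± 0.61, and Slc16a1, a monocarboxylate carrier, by 1.45 ± 0.16 and by 1.13 ± 0.16.

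Around the guanylin peptides, a downstream kinase passed the test in both genotypes and their receptor in neither. Of 3 measured genes of this pathway, 1 rose (Prkg2) and 1 fell (Prkg1) in WT, and 1 rose (Prkg2) and 0 fell in KO. The Prkg1 call ended with the number of the title code as block (-1.07). Prkg2, the membrane-bound kinase that cyclic GMP activates, had intensities between 8 and 18 on all arrays other than tumors, and between 55 and 514 in WT tumors and 167 and 405 in KO tumors. It rose by 4.65 ± 0.36 in WT (adjusted p = 5.3e-11) and by 4.82 ± 0.36 in KO (adjusted p = 2.6e-11), a size that depends on the number added before the log because the other groups are near background. The receptor gene Gucy2c had a mean intensity of 472 ± 80.8 (SD, n = 4) in untreated WT and 359 ± 43.9 (n = 6) in WT tumors, and the difference of -0.38 ± 0.22 did not pass. In KO it was 511 ± 38.5 (n = 4) and 378 ± 152 (n = 6), with a difference of -0.48 ± 0.22.

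Of 7 transcription factors known from colonocytes, 1 rose and 3 fell in WT tumors, and 1 rose and 4 fell in KO tumors. Without each array in turn, 3 of 4 calls held in WT and 4 of 5 in KO. Klf4, a factor of differentiated surface cells, fell by 1.58 ± 0.21 in WT and by 1.63 ± 0.21 in KO, and Hnf4g by 1.13 ± 0.21 and by 1.06 ± 0.21. Cdx2 was the riser, described beside Slc9a3.

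**Figure D5:**
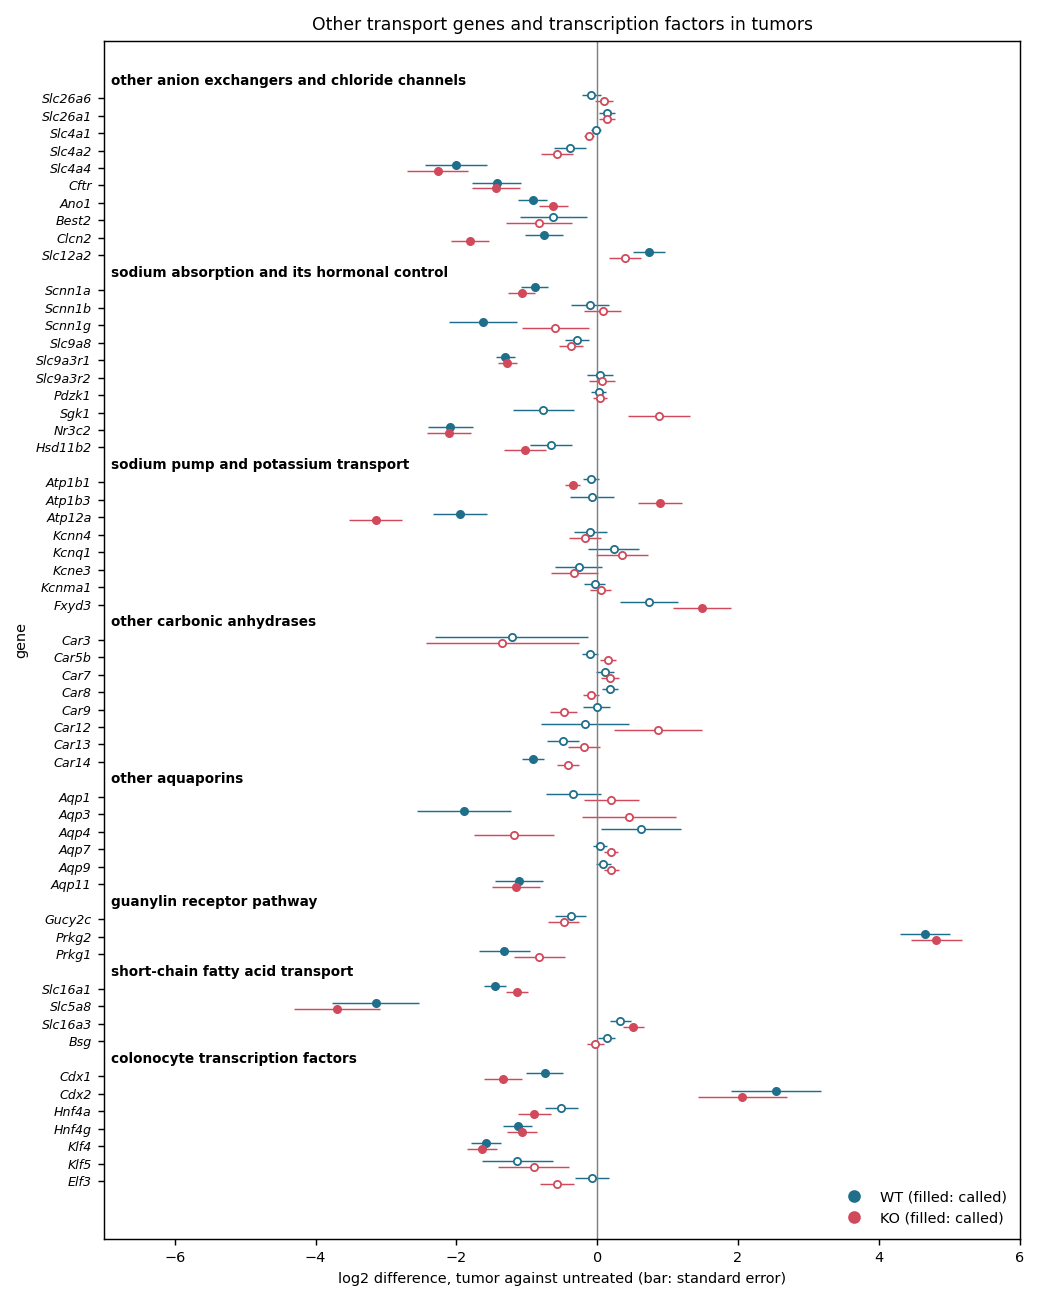
Log2 difference of tumor against untreated for related transport genes and transcription factors, with the standard error as a bar, WT in blue, KO in red and filled points where the adjusted p was under 0.05. Prkg2 stands at 4.65 and 4.82, Slc5a8, Atp12a, Slc4a4 and Nr3c2 lie left of 0 in both genotypes, and most other carbonic anhydrases lie near 0.

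Some markers of other cells also changed with tumors, counted here beside 22.8% of all genes in WT and 20.8% in KO. Of 7 smooth muscle markers, 0 rose and 7 fell in WT and 0 rose and 6 fell in KO, with medians of -1.85 and -1.79. Their summed intensity ranged from 17397 to 22006 in untreated WT arrays and from 5523 to 15843 in WT tumors, and from 15128 to 16274 and from 1819 to 13166 in KO. Of 8 leukocyte markers, 6 rose in WT and 3 in KO, with sums of 585 to 4518 in untreated WT and 6924 to 13102 in WT tumors, and 1209 to 3023 and 7181 to 11907 in KO. Of 10 general epithelial markers, 1 rose and 0 fell in WT and 1 rose and 4 fell in KO, with medians of -0.10 and -0.20. The 4 fallers in KO were 2 without any of KO untreated replicates 1, 3 and 4 or KO tumors 3, 5 and 6. Without each array in turn, all 7 smooth muscle calls held in WT and 4 of 6 in KO. Of the leukocyte calls 4 of 6 held in WT and 3 of 3 in KO. Of 7 goblet cell markers 2 passed in WT and 1 in KO, of 7 squamous markers 2 and 0, and of 4 small intestine markers 1 and 1. The squamous and small intestine calls in WT did not hold without each array in turn, nor did 1 goblet cell call in WT.

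The part of these cell types in the fall of the transport genes was not tested. Of 6 distal gut Hox genes, 0 rose and 3 fell in each genotype, beside the same shares of all genes. The medians were -0.80 in WT and -0.82 in KO. The count was 1 in WT without WT tumor 1 or WT untreated replicate 2 or 3, and 1 in KO without KO tumor 3 or 6 or KO untreated replicate 1 or 4. The letter of the title code as block left 0 in WT. The labels give no position along the colon, so position and tumor cannot be told apart here.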

How the data were processed

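The samples were 36 homogenised mouse colon samples, total RNA by TRIzol, on Affymetrix HT MG-430 PM arrays, per the labels. The authors deposited linear intensity values, as whole numbers between 4 and 14185. Background correction and normalization: not given in the sources used here. With arrays there is no depth, so their number limits the precision.

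From the deposited intensity, log2(intensity + 1) was quantile normalized and fitted with limma 3.58.1 in R 4.3.3 (lmFit, eBayes with trend; tables with Python 3.11.15). The fit had 8 group means over all 36 arrays and 17 comparisons, with Benjamini-Hochberg adjustment over 17097 genes. Of 45037 probe sets, 28898 had 1 gene symbol, 551 several and 15588 none; each gene used its probe set with the highest mean. The fit was tested on simulated data.

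The 10 genes and all lists were chosen with earlier results of these data known. Named genes were the 10, up to 4 per related list with the smallest adjusted p, and the 3 most similar genes each. Same-numbered arrays correlated above 0.1 in every pair only for WT day 7 against untreated (0.164 to 0.398) and for KO against WT at day 15 (0.174 to 0.801); the labels state no pairing. Alternatives covered normalization, the number added (16), dim genes, array weights, blocks and arrays left out.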

Additional observations from a re-analysis of the deposited data

Results flagged for a closer look

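In 6 of 80 groups of arrays, 1 array lay far from the rest of its group by Dixon's test, and chance gives about 1 in 20. Slc26a3 was 326 on KO day 15 replicate 4, with the others between 1624 and 1834. Slc9a3 was 217 on WT day 15 replicate 3, with the others between 39 and 50. WT tumor replicate 6 was high for Slc26a2 (51, the others 18 to 25) and for Slc37a2 (75, the others 13 to 20). KO tumor replicate 2 was low for Slc26a2 (13, the others 20 to 27) and for Car4 (40, the others 342 to 931).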

How the results depend on the processing

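Counts of the 10 transport genes in tumors against untreated held: 9 in WT under 13 of 14 alternatives (8 without the arrays with Krt5 above 100) and 8 in KO under 14 of 14. Other counts moved. Array weights gave 2 for WT day 7, 3 for KO day 7, 1 for WT day 15, 1 for KO day 15, 4 for WT day 15 against day 7, 8 for KO tumor against day 15, 1 for KO against WT in untreated colon, 2 at day 7 and 3 for the interaction at day 7. Fitting only the groups compared gave 4 for KO day 7, 3 for KO day 15 against day 7, 2 for KO tumor against day 15 and 1 for KO against WT in untreated colon. For KO day 7, median centring, no normalization and leaving out dim genes gave 1 each. Adding 16 gave 1 for KO day 15 and 1 for WT day 15 against day 7, where leaving out dim genes also gave 1. The letter of the title code as block gave 2 for KO tumor against day 15. Leaving out the arrays with Krt5 above 100 gave 1 for WT day 15 against day 7 and 1 for KO against WT at day 7, and leaving out KO day 7 replicates 1 and 2 gave 2 for KO day 15 against day 7. Chosen after seeing the data, leaving out both day 15 arrays with the highest S100a8 gave 2 for KO day 7 and 1 for WT day 15, and leaving out WT tumor 6 and KO tumor 2 gave 1 for KO day 7, 1 for KO day 15 and 3 for WT day 15 against day 7. The causes were not tested.

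With the replicate number as a block, the counts were 1 for KO day 7 and 1 for WT day 15 against day 7, and no other count moved by over 1.5 times; nothing shows that these numbers pair the samples there. Without each array in turn, counts ranged from 0 to 1 (WT day 7), 0 to 2 (KO day 7), 0 to 1 (WT day 15), 0 to 3 (KO day 15), 0 to 2 (WT day 15 against day 7), 4 to 5 (KO day 15 against day 7), 6 to 9 (WT tumor against day 15), 2 to 6 (KO tumor against day 15), 0 to 1 (KO against WT at day 7) and 0 to 2 (interaction at day 7). No gene reversed: of 6120 values with an array left out, 6054 kept their call, 24 lost it and 42 gained it, and of 2380 under other alternatives these were 2303, 27 and 50.

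Counts over all genes, with the lowest and highest over the alternatives, were 283 (69 to 1460) for WT day 7, 2089 (1298 to 4857) for KO day 7, 578 (47 to 940) for WT day 15, 139 (35 to 224) for KO day 15, 3891 (2398 to 5501) for WT tumors, 3548 (2806 to 5713) for KO tumors and 51 (0 to 3541) for KO against WT at day 7. Values near 16, such as tumor Slc26a2 and Slc37a2, are close to the array medians, so their folds are imprecise.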

Other observations

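Fxyd3, a small regulator of the sodium pump, rose in KO tumors by 1.49 ± 0.41. Of 7 proliferation markers, 4 rose and 0 fell in WT tumors and 2 rose and 0 fell in KO tumors, with medians of 0.70 and 0.53. Over all genes 22.8% passed in WT tumors and 20.8% in KO tumors. The KO count of these markers was 1 without KO untreated replicate 1 and 4 without WT day 15 replicate 1. At day 7 all 7 of these fell in both genotypes, beside 1.66% of all genes called in WT and 12.2% in the arrays labelled KO. Their medians were -1.97 in WT and -1.50 in the arrays labelled KO. Of the 10 transport genes 0 passed by limma there (3 unadjusted in each).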
